A study of Mus musculus with 10 samples.

Results

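The genes described here encode the proteins of the cytosolic ribosome. They are the 87 rows, among 21898 genes in the expression table, whose symbol starts with Rpl, Rps or Rplp followed by a digit or is Rpsa, without the ribosomal S6 kinase genes and without 8 rows named as pseudogenes by "-ps". Of the 87 rows, 52 belong to the large subunit, 33 to the small subunit and 2 to neither, since Rps19bp1 and Rps23rg1 are no structural ribosomal proteins. The 52 large subunit rows hold 46 standard genes and 6 paralogs (Rpl3l, Rpl7l1, Rpl10l, Rpl22l1, Rpl36al and Rpl39l), and the 33 small subunit rows hold 31 standard genes and the paralogs Rps27l and Rps27rt.

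The study sequenced messenger RNA of wild-type mouse CD8+ T cells taken from the spleen. Control cells spent 5 days in normal medium, with no agent added, and treated cells spent 5 days in medium with 10 mM N-acetylcysteine (NAC), a thiol and source of cysteine. There were 5 libraries per group, numbered 1 to 5, with 13.30 to 17.71 M reads assigned to genes per library. Nothing in the labels ties a library to an animal or a culture of its own, so a p-value here reflects variation among these libraries alone, and that variation may be technical. They give no strain, age or sex of the mice and no stimulus used in the culture.

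Each ribosome carries 1 copy of nearly every ribosomal protein, so the genes are highly and coordinately expressed, and their products are matured and assembled with ribosomal RNA in the nucleolus. Activated T cells raise ribosome production before they grow and divide, and in mammals the mTORC1 pathway controls translation of these messages through a terminal oligopyrimidine (TOP) motif, a C followed by a run of C and T at the very start of the transcript. The RNA-binding protein Larp1 holds such messages back when mTORC1 is inactive.

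The sequence around the transcription start is shown for 11 members because the TOP motif is the feature that the family is best known to share. The sequences are from RefSeq on GRCm38.p6, 5′ to 3′ on the sense strand, with 45 bases before the annotated start and 15 bases from it on. Capitals mark the longest run of a C followed by at least 5 C or T that began within 20 bases of the start and could be read in the bases shown. A sequence without capitals held no such run in these bases, and a run past their end is not marked. Rps6, Rps15a, Rps18, Rpl18, Rpl28, Rpl35a and Rplp2 passed the test with higher values under NAC in libraries 1 and 2, as described further on, and carried a run. Rps10 carried a run too and passed with lower values. In the bases shown, Rps16 was called higher without a run, Rpl7l1 was called lower without a run, and Rplp0 was not called and had none. An annotated start can differ from the start used in these cells. Rpl35a has further annotated starts, which held no run in windows of the same size and are not shown. The 11 sequences are no measure of how often a run goes with a rise. Of tested subunit members with a start sequence, 35 of 43 with a run and 13 of 20 without were called higher there. That count also took runs that lie past the bases shown.
Rps6, chr4:86857353-86857412, minus strand: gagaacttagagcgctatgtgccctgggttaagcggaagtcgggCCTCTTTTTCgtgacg
Rps15a, chr7:118116133-118116192, minus strand: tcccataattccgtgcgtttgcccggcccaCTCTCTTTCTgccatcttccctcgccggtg
Rps18, chr17:33955651-33955710, minus strand: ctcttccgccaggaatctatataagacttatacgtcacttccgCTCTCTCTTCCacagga
Rpl18, chr7:45718026-45718085, plus strand: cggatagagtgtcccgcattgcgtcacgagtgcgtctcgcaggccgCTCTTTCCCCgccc
Rpl28, chr7:4792920-4792979, plus strand: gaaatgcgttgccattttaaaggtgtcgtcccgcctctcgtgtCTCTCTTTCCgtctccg
Rpl35a, chr16:33056437-33056496, plus strand: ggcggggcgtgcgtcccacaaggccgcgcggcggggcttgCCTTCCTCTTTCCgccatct
Rplp2, chr7:141447606-141447665, plus strand: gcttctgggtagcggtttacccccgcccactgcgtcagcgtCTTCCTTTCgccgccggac
Rps10, chr17:27635230-27635289, minus strand: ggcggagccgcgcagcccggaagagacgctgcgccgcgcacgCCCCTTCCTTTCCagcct
Rps16, chr7:28350644-28350703, plus strand: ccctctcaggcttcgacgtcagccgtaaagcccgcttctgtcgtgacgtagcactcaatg
Rpl7l1, chr17:46782642-46782701, minus strand: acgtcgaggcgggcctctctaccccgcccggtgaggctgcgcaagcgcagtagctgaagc
Rplp0, chr5:115559422-115559481, plus strand: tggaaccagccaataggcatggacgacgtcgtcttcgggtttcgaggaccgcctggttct

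The cell type label was checked against marker genes. The helper T cell co-receptor Cd4 had 467 and 465 CPM (read counts per library total, scaled by TMM) in control 1 and 2 and 486 and 521 CPM in NAC 1 and 2, but only 0.766 to 2.76 CPM in the 6 libraries numbered 3 to 5. Cd8a, which defines CD8+ cells, ranged over 202 to 271 CPM in libraries 1 and 2 against 488 to 667 CPM in libraries 3 to 5. Libraries 1 and 2 of both groups thus stand apart and go against the label in part, and all results are given for both sets. Summed over 2 markers, helper T cells gave 539 to 586 CPM in libraries 1 and 2 and 1.76 to 4.09 CPM in libraries 3 to 5. T cell genes summed to 1343 to 1632 CPM over 5 markers in all 10 libraries, while the sums of the B cell, myeloid, dendritic, erythroid and neutrophil markers were at most 13.4 CPM. The 3 NK markers summed to 30.4 to 43.0 CPM in libraries 1 and 2 and to 43.8 to 55.7 CPM in libraries 3 to 5. Nearly all of that sum was Eomes (30.3 to 55.4 CPM), while Ncr1 and Klrb1c had at most 0.153 CPM in a library. In bulk samples, fewer cells of a type and less RNA per cell cannot be told apart.

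Scaled by the deposited gene length, the most abundant members were the P stalk genes Rplp1 and Rplp0. The authors' FPKM (read counts per gene length and library total) averaged over the 10 libraries was 3463 for Rplp1 and 2919 for Rplp0, whose products form the stalk that recruits the factors of translation. In the small subunit Rps3a1 led with 2433 FPKM, followed by Rps15 with 2108 FPKM. The third stalk gene, Rplp2, was at 381 FPKM. Rplp1 and Rplp2 have coding lengths of 342 and 345 bases in GENCODE M21, and their mean CPM in control was 1634 and 744. Ranks by FPKM thus depend on the deposited gene length, which need not be the transcript length. Paralogs were far lower, with 25.5 FPKM for Rpl22l1, 46.9 for Rpl7l1, 1.36 for Rpl36al and 1.08 for Rpl39l, while Rps27l and Rps27rt reached 158 and 246 FPKM.

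Some standard members had low values. Rpl24 had 0.824 FPKM and only 6 to 20 reads per library, Rps10 had 4.90 FPKM, Rpl13a 17.3 FPKM and Rpl23a 34.3 FPKM. Rpl35 followed with 45.8 FPKM and Rpl30 with 56.2 FPKM. Ribosomal protein genes have many processed copies in the mouse genome, and 1 row left out by name, Rpl9-ps6, took 31502 reads over the 10 libraries. How reads shared by copies were assigned is not given in the sources used here, nor is the strand, and the part of read assignment in these low values was not tested. Levels and changes of these low members are therefore uncertain.

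Summed over both subunits, ribosomal protein reads took the smallest share of the libraries in control 1 and 2 and the largest in NAC 1. The 85 subunit members held 7.85% and 7.87% of all reads in control 1 and 2, and 9.77%, 10.2% and 10.5% in control 3, 4 and 5. With NAC they held 12.9% and 10.2% in libraries 1 and 2, and 10.7%, 10.2% and 10.8% in libraries 3 to 5. Both NAC values were above both control values in libraries 1 and 2, and in libraries 3 to 5 the groups overlapped.

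The large subunit sum was 44904 and 44901 CPM in control 1 and 2, and 72779 and 54722 CPM in NAC 1 and 2. In libraries 3 to 5 it was 56087, 58744 and 60291 CPM in control and 59003, 56130 and 60049 CPM with NAC. NAC thus had 1.42 times the control sum in libraries 1 and 2, but 1 time that sum in libraries 3 to 5. The small subunit behaved alike, with 33689 and 33357 CPM in control 1 and 2 against 57343 and 42373 CPM in NAC 1 and 2, a ratio of 1.49. Its sums in libraries 3 to 5 were 43417, 45949 and 46936 CPM in control and 46786, 44285 and 47399 CPM with NAC, a ratio of 1.02. The low sums belonged to the control side of libraries 1 and 2, which had 0.769 times the large subunit sum and 0.738 times the small subunit sum of control 3 to 5. Over 10 libraries the sum of both subunits was 93655 ± 14178 CPM in control and 108174 ± 12951 CPM with NAC (SD, n = 5 per group), a difference about as large as these SDs. These sums were not tested, since the members were chosen with earlier results known.

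**Figure D1:**
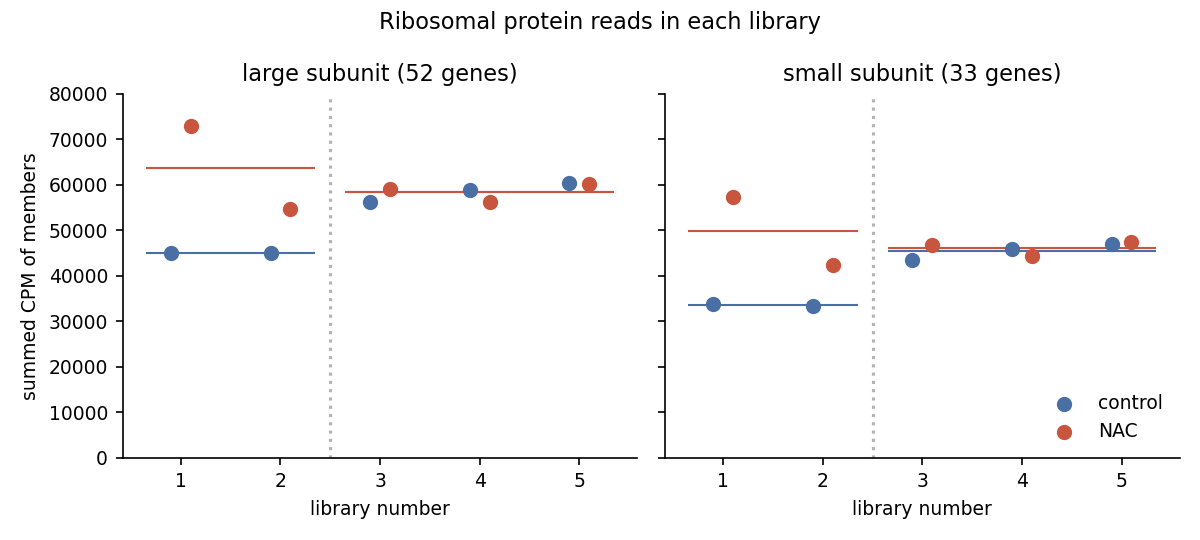
Summed CPM of the large (left) and small (right) subunit members, on the vertical axis, in each library by its number, with control in blue, NAC in red and horizontal lines at the mean of each group and set. Control 1 and 2 are the lowest points of both panels (44904 and 44901 CPM for the large subunit), NAC 1 is the highest (72779 CPM), and the groups overlap in libraries 3 to 5.

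Over all 10 libraries, the comparison of NAC with control called 1 ribosomal protein gene of 84 tested. Rpl3l, Rpl10l and Rps23rg1 had too few reads to be tested. In edgeR's quasi-likelihood test with Benjamini-Hochberg adjustment over 11403 genes, 0 members were higher and 1 was lower, against a background of 6.69% of all genes called higher and 4.88% called lower. At an unadjusted p below 0.05 there were 10 members. DESeq2 called 3 higher (Rps16, Rpl4 and Rpl12) and Rps10 lower. The change was positive for 74 of the 84, with a median log2 change of 0.18 in the large subunit and 0.22 in the small subunit, beside 0.01 over all genes tested. With a term for the library set 11 members were higher and 2, Rps10 and Rpl7l1, were lower, where 20.1% of all genes were higher and 16.4% lower. NAC values lay above control values without overlap for 4 members and below for 1, against a background of 8.62% and 7.75% of all genes.

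The 4 members with no overlap, Rps16, Rpl4, Rpl12 and Rps12, are named here after their values were seen. Rps16 (ENSMUSG00000037563, chromosome 7), a small subunit protein near the decoding site, was at 864, 834, 997, 1040 and 1120 CPM in control and at 1532, 1176, 1244, 1170 and 1184 CPM with NAC. The lowest NAC library stood just above the highest control library, and NAC 1 stood far above the rest. Its log2 change of 0.38 ± 0.11 did not pass (adjusted p = 0.0536), but it did with library size alone (0.0298), upper quartile factors (0.0363) or a minimum of 5 CPM in 5 libraries (0.0472). Rpl4, a protein that lines the peptide exit tunnel, was at 2863, 2964, 3457, 3551 and 3566 CPM in control and at 4765, 3921, 3713, 3668 and 3942 CPM with NAC (log2 change 0.29 ± 0.10, adjusted p = 0.0928). Rpl12 had a log2 change of 0.32 ± 0.12 (0.0942) and Rps12 of 0.28 ± 0.12 (0.143).

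The gene called over 10 libraries was Rps10 (ENSMUSG00000052146, chromosome 17), a small subunit protein at the messenger RNA entry side that is mutated in some patients with Diamond-Blackfan anemia. Its control values were 15.5, 14.4, 13.3, 13.7 and 12.1 CPM, and its NAC values were 6.92, 6.79, 11.5, 8.29 and 11 CPM. No NAC library reached the lowest control library, and NAC 1 and 2 were the lowest of all. It fell by 0.63 ± 0.18 on the log2 scale (SE; adjusted p = 0.0417). The call ended with library size alone (adjusted p = 0.0504), upper quartile factors (0.0506) or no filter on low counts (0.0563), and without any 1 of control 1 to 5, NAC 1, NAC 2 or NAC 4 (0.0595 to 0.0981). This gene had 104 to 275 reads per library, and its low level is uncertain as stated above.

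In libraries 1 and 2, most ribosomal protein genes were higher with NAC. Of 84 members 64 rose, 3 (Rpl36al, Rps10 and Rpl7l1) fell and 17 did not pass, where the background was 32.2% of all genes called higher and 28.3% called lower. In the large subunit 36 of 50 rose and 2 fell, with a median log2 change of 0.47, and in the small subunit 28 of 33 rose and 1 fell, with a median of 0.55, beside 0.04 over all genes. Among the members called higher, changes ran from 0.33 to 0.89 in the large subunit and from 0.33 to 0.90 in the small subunit, so all stayed below a log2 change of 1. Every NAC library lay above every control library for 63 members and below for 3, against a background of 39.3% and 34.8%. Each arm holds 2 libraries. Without NAC 1 the NAC arm was NAC 2 alone, and the members had a median log2 change of 0.26 against 0.51 with NAC 1. A lone library gives no spread of its own, and the fit takes it from the other libraries. Calls made or ended without 1 of libraries 1 and 2 rest on that assumption. Fitted without libraries 3 to 5, the same 4 libraries gave 36 members higher and 3 lower, where 23.7% of all genes were higher and 20.1% lower. Their common coefficient of variation was 11.9% in that fit, against 7.43% in the joint fit of both sets. Values given below for libraries 1 and 2 come from the joint fit unless stated. Fitted alone, Rpl17 had an SE of 0.17 and an adjusted p of 0.00421 in edgeR's test, against 0.10 and 9.85e-06 in the joint fit. Cd4 and the helper T cell sum were high in both groups of these libraries, and the part of this in the result was not tested.

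Rpl17 was among the large subunit genes that rose in libraries 1 and 2. Rpl17 (ENSMUSG00000062328, chromosome 18), which lies at the peptide exit tunnel, was at 772 and 747 CPM in control 1 and 2 and at 1579 and 1229 CPM in NAC 1 and 2. Both NAC values exceeded both control values, and the log2 change was 0.89 ± 0.10 (SE; adjusted p = 9.85e-06). In libraries 3 to 5 Rpl17 was at 1272, 1297 and 1339 CPM in control and at 1466, 1335 and 1458 CPM with NAC. There the lowest NAC value was just below the highest control value, and the log2 change of 0.12 did not pass (adjusted p = 0.285) but did with libraries 3 to 5 fitted alone (0.00175).

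Rpl3 (ENSMUSG00000060036, chromosome 15), a protein next to the peptidyl transferase centre, was at 2365 and 2344 CPM in control 1 and 2 and at 4020 and 3257 CPM in NAC 1 and 2, giving a log2 change of 0.63 ± 0.10 (adjusted p = 0.000135). Its other libraries held 3144, 3338 and 3324 CPM in control and 3239, 3007 and 3331 CPM with NAC, which overlap. Rpl5 and Rpl11 form a complex with a ribosomal RNA that binds the p53 regulator Mdm2 when ribosome assembly fails. Rpl5 rose from 1852 and 1862 to 3207 and 2471 CPM in libraries 1 and 2 (log2 change 0.61), and Rpl11 from 961 and 890 to 1634 and 1220 CPM (0.62). Rpl22, which is needed for alpha-beta T cell development in mice and is dispensable for global translation, was at 441 and 369 CPM in control and at 631 and 470 CPM with NAC (0.44, adjusted p = 0.00733). The call of Rpl22 ended without control 2 (0.0941) or NAC 1 (0.178) and when these libraries were fitted alone (0.0812).

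The 3 genes of the P stalk differed in their values. Rplp2 (ENSMUSG00000025508, chromosome 7) went from 608 and 643 CPM in control 1 and 2 to 1148 and 778 CPM in NAC 1 and 2, and its log2 change was 0.62 ± 0.13 (adjusted p = 0.00132). Rplp1 went from 1433 and 1566 to 2481 and 1710 CPM, a log2 change of 0.48 ± 0.14 (adjusted p = 0.00744), and this call ended without control 1 (0.0696) or with these libraries fitted alone (0.0925). NAC 1 was far above NAC 2 for both genes. Rplp0 (ENSMUSG00000067274, chromosome 5), the scaffold of the stalk, was at 3959 and 4146 CPM in control and at 4723 and 3905 CPM with NAC, so the groups overlapped. Its log2 change of 0.09 ± 0.10 did not pass (adjusted p = 0.431). Without NAC 2 it was 0.22 and passed (adjusted p = 8.32e-05), and without NAC 1 it was -0.05 and did not (0.412). Differences between these 3 genes were not tested.

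Rps14 and Rps6 were among the small subunit genes that rose in libraries 1 and 2. Rps14 (ENSMUSG00000024608, chromosome 18), whose loss causes anemia in a human chromosome deletion syndrome, was at 827 and 882 CPM in control 1 and 2 and at 1844 and 1356 CPM in NAC 1 and 2. The log2 change was 0.90 ± 0.12 (adjusted p = 2.91e-05), while control 3 to 5 held 1283, 1454 and 1357 CPM and NAC 3 to 5 held 1389, 1288 and 1397 CPM. Rps6 (ENSMUSG00000028495, chromosome 4), the ribosomal protein phosphorylated downstream of mTORC1, was at 1586 and 1571 CPM in control and at 3235 and 2393 CPM with NAC in libraries 1 and 2. Its log2 change was 0.83 ± 0.12 (adjusted p = 4.35e-05). Control 3 to 5 held 2554, 2757 and 2668 CPM of Rps6, so NAC 2 stayed below all of them and NAC 1 stood above.

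Rps15 rose from 949 and 955 to 1911 and 1410 CPM in libraries 1 and 2 (log2 change 0.80), and Rps15a from 872 and 836 to 1657 and 1252 CPM (0.77). Rps15 encodes a protein of the subunit head whose tail reaches the decoding site. Rpsa, which also serves as a laminin receptor, went from 2943 and 3316 to 5921 and 4404 CPM (0.72). Rps27a, translated as a fusion with ubiquitin, went from 892 and 821 to 1527 and 1078 CPM (0.60). Rps19, the gene most often mutated in Diamond-Blackfan anemia, went from 607 and 586 to 1049 and 728 CPM (0.57). Rps3a1, a large surface protein of the small subunit, went from 1764 and 1831 to 2932 and 2212 CPM (0.52, adjusted p = 0.00112), a call that ended with these libraries fitted alone (0.0553). In each of these 6 genes both NAC libraries lay above both controls, and NAC 1 was the higher.

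**Figure D2:**
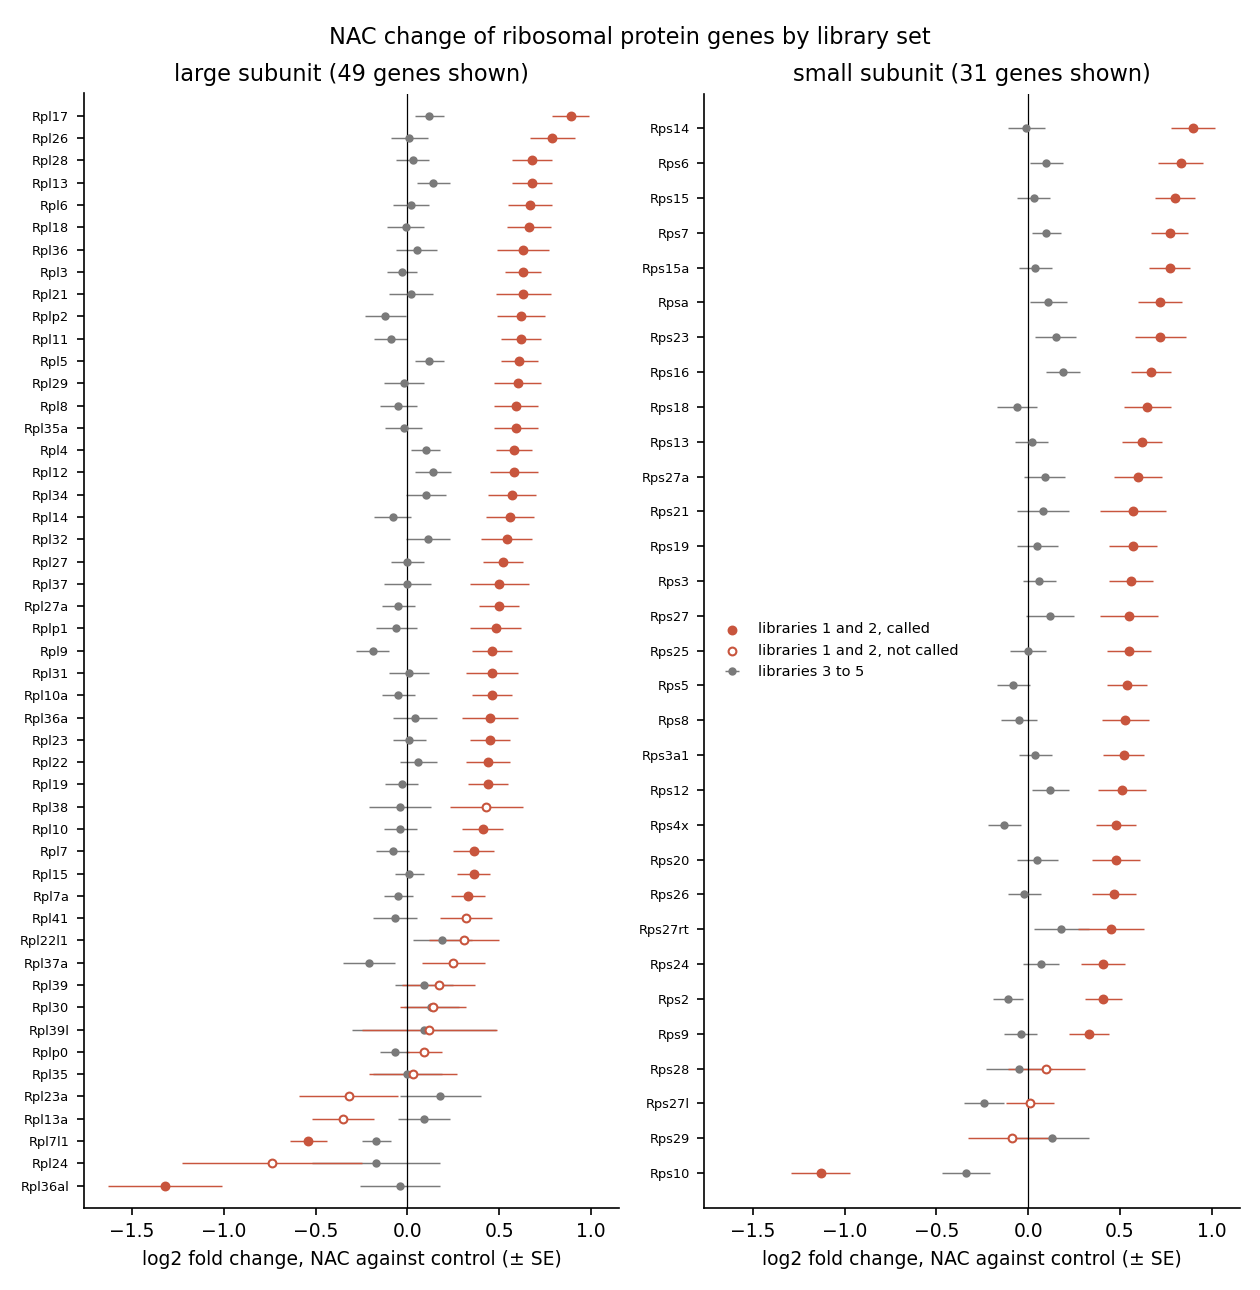
Log2 fold change of NAC against control (horizontal axis, ± SE) for 49 of the 50 large and 31 of the 33 small subunit genes tested, with libraries 1 and 2 in red, filled where the adjusted p was below 0.05, and libraries 3 to 5 in grey. Filled red points lie between 0.33 and 0.90 except the 3 called falls, Rpl36al, Rps10 and Rpl7l1, and grey points lie between -0.34 and 0.19.

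Paralogs of the standard genes showed falls, a rise and no call. Of the 6 tested, Rpl36al and Rpl7l1 fell in libraries 1 and 2, Rps27rt rose and the other 3 did not pass. Rpl7l1 (ENSMUSG00000063888, chromosome 17), whose product acts in assembly of the large subunit in the nucleolus, was at 242 and 260 CPM in control 1 and 2 and at 194 and 151 CPM in NAC 1 and 2. All 4 values exceeded those of libraries 3 to 5 (145, 136 and 139 CPM in control, and 126, 118 and 129 CPM with NAC). It fell by 0.54 ± 0.10 on the log2 scale in libraries 1 and 2 (adjusted p = 0.000394), and its change of -0.17 in libraries 3 to 5 did not pass (0.129) but did with those libraries fitted alone (0.000651). Rpl36al, a second copy of Rpl36a, was at 2.32 and 1.94 CPM in control and at 0.783 and 0.914 CPM with NAC, giving a log2 change of -1.32 ± 0.31 (adjusted p = 0.0027) that rests on few reads.

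Rps27l, a p53 target in human cells, was at 181 and 153 CPM in control 1 and 2 and at 194 and 143 CPM in NAC 1 and 2. Libraries 3 to 5 held 107, 107 and 123 CPM in control and 102, 91.6 and 92.2 CPM with NAC, so this gene too had its higher values in libraries 1 and 2. Its change in libraries 1 and 2 did not pass, and its change of -0.24 in libraries 3 to 5 did not pass in the joint fit (adjusted p = 0.115) but did when these libraries were fitted alone (0.000155), without NAC 1 (0.0251) or without NAC 2 (0.0257). Rps27rt, a retrocopy of Rps27, went from 86.5 and 58.6 to 116 and 82.3 CPM in libraries 1 and 2 and overlapped between the groups. Its log2 change of 0.45 ± 0.18 passed narrowly (adjusted p = 0.0487), and the call ended without control 2 (0.414), control 4 (0.065), NAC 1 (0.6), NAC 2 (0.072), NAC 3 (0.0631), NAC 4 (0.0637) or NAC 5 (0.0631). It also ended with DESeq2 size factors (0.0564), with no filter on low counts (0.237) and with libraries 1 and 2 fitted alone (0.139). Rpl22l1, the paralog of Rpl22, was at 50.2 and 32.4 CPM in control and at 60.7 and 42.1 CPM with NAC, which did not reach the threshold (adjusted p = 0.18) but did without control 1 (0.0198). Rpl39l had 0.4 to 1.5 CPM in all libraries.

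Rpl3l, a paralog of striated muscle, had at most 0.182 CPM in a library, Rpl10l, a paralog of the testis, had 0 reads, and Rps23rg1 had reads in 1 library. Rps19bp1, which encodes a binding partner of the Rps19 protein, was at 35.8 and 38.9 CPM in control 1 and 2 and at 40.8 and 27.9 CPM with NAC. In libraries 3 to 5 it was at 48.0, 49.4 and 49.8 CPM in control and at 45.1, 37.5 and 38.3 CPM with NAC. The groups did not overlap there, but the log2 change of -0.28 did not pass (adjusted p = 0.0822), though it did with these libraries fitted alone (0.000275).

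Rps10 in libraries 1 and 2 went from 15.5 and 14.4 to 6.92 and 6.79 CPM and fell by 1.13 ± 0.16 on the log2 scale (adjusted p = 5.8e-05). The 17 members that did not pass in these libraries included the low members Rpl24, Rpl13a, Rpl23a, Rpl35 and Rpl30, the paralogs Rpl22l1, Rpl39l and Rps27l, Rps19bp1 and Rplp0. Rpl37a, Rpl38, Rpl39, Rpl41, Rps28 and Rps29 were also among them. Named after their values were seen, Rps29 was at 393 and 235 CPM in control and at 362 and 229 CPM with NAC, and Rpl38 at 271 and 180 CPM in control and at 370 and 239 CPM with NAC. For both genes library 1 was well above library 2 within each group.

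In libraries 3 to 5, no ribosomal protein gene passed the test, where the background was 15% of all genes called higher and 14% called lower. The median log2 change was 0.00 in the large subunit and 0.04 in the small subunit, and the largest changes were -0.34 and 0.19. At an unadjusted p below 0.05 there were 4 members. In these libraries NAC lay above control without overlap for 7 members and below for 7, where the background was 27.1% and 27.5%. Fitted without libraries 1 and 2, these 6 libraries had a common coefficient of variation of 3.6%, against 7.43% in the joint fit, and 12 members were higher and 12 lower with log2 changes of -0.33 to 0.19. In that fit 23.7% of all genes were higher and 25% lower. Without NAC 1 in the joint fit 9 members were higher and 11 lower in libraries 3 to 5, beside 22.7% and 24.1% of all genes. Without NAC 2 the counts were also 9 and 11, beside 22.8% and 24% of all genes.

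In the joint fit, the NAC effect itself differed between the sets. The interaction test called 52 members higher in libraries 1 and 2 than in libraries 3 to 5 and 3 lower, where the background was 21.9% and 20% of all genes. By subunit, 31 of 50 large and 21 of 33 small members were higher, with medians of 0.48 and 0.52, beside 0.05 over all genes. Rps14 differed by 0.91 ± 0.15 on the log2 scale (adjusted p = 0.000555) and Rpl17 by 0.76 ± 0.13 (0.000677). Rpl36al differed by -1.28, Rps10 by -0.79 and Rpl7l1 by -0.37. Rplp0 differed by 0.16 ± 0.12 and did not pass (adjusted p = 0.317), nor did Rpl22 with 0.39 ± 0.16 (0.0674).

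Levels in libraries 1 and 2 differed from those in libraries 3 to 5 on the control side, and between NAC 1 and NAC 2. Both control libraries 1 and 2 lay below all 3 control libraries 3 to 5 for 59 of 84 members and above for 5 (Rpl7l1, Rps27l, Rps10, Rpl13a and Rpl39l), while each order was seen in 37.1% of all genes. NAC 1 was higher than NAC 2 for 83 of 84 members, all but Rpl36al, against 47.5% of all genes, and control 1 was higher than control 2 for 51, against 50.9%. NAC 1 exceeded both controls of its set for 77 members with a median log2 ratio of 0.72, and NAC 2 did so for 63 with a median of 0.25, where the share of all genes was 48.6% and 47.7%. NAC 2 lay inside or above the range of control 3 to 5 for 33 members, against 55.9% of all genes. These shares are descriptions of single libraries and were not tested.

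**Figure D3:**
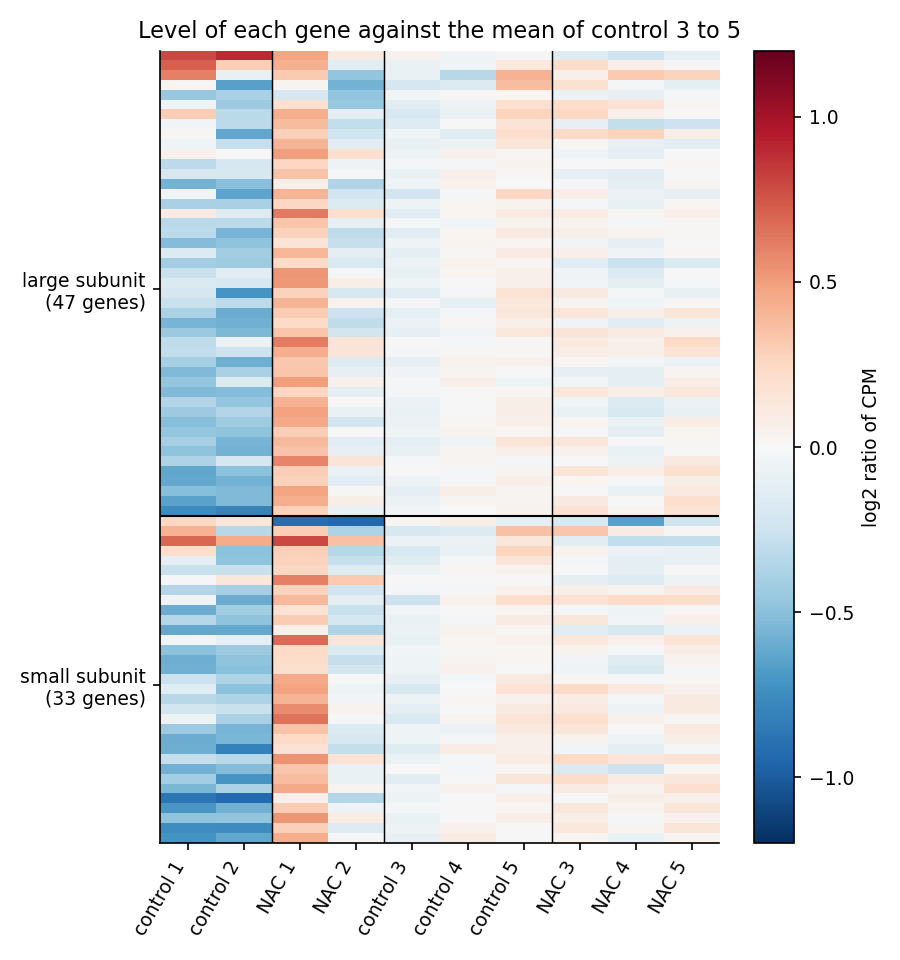
Level of each of 47 large and 33 small subunit genes (rows, with at least 10 CPM in control, sorted by their change in libraries 1 and 2) in the 10 libraries (columns), as the log2 ratio to the mean of control 3 to 5, blue below and red above it. Control 1 and 2 are mostly blue, NAC 1 is mostly red and libraries 3 to 5 of both groups are near white.

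The spread between libraries of the same group and set was wider for the members than for genes of like level. The median SD of log2 CPM within group and set was 0.152 over the 84 members, 0.124 over all tested genes and 0.0842 over 276 genes with a mean CPM in the interquartile range of the members. Shorter members had the wider spread. Across 75 members with a mean of at least 1000 reads, coding length in GENCODE M21 and spread had a Spearman's rho of -0.78. These genes share the same libraries and are not independent, and the difference in spread was not tested.

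The shortest members had the largest differences within a group. For 11 members with a coding length of up to 300 bases the median log2 ratio of control 1 to control 2 was 0.50, and control 1 was above control 2 in 11 of 11. For 42 longer members of up to 600 bases the median was 0.05, with 27 of 42 above, and for the 22 longest it was -0.06, with 6 of 22 above. NAC 1 was above NAC 2 by medians of 0.54, 0.45 and 0.41 in the 3 classes, so that difference was seen at all lengths. The test called 4 of 11, 40 of 42 and 20 of 22 members higher in libraries 1 and 2, with median log2 changes of 0.32, 0.58 and 0.54. The 7 short members that did not pass were Rpl37a, Rpl38, Rpl39, Rpl41, Rps27l, Rps28 and Rps29.

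The same classes were formed from other genes with at least 1000 reads. Control 1 and 2 differed by medians of 0.08, 0.01 and 0.01 in 64, 378 and 3351 non-members, against 0.50, 0.05 and -0.06 in the members. NAC 1 was above NAC 2 by medians of 0.41, 0.26 and -0.02, so short non-members leaned the same way as the members. The non-members had median changes of 0.16, 0.07 and -0.17 in libraries 1 and 2, and 32.8%, 35.4% and 20.4% of them were called higher. The part of message length in the member changes was not tested.

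**Figure D4:**
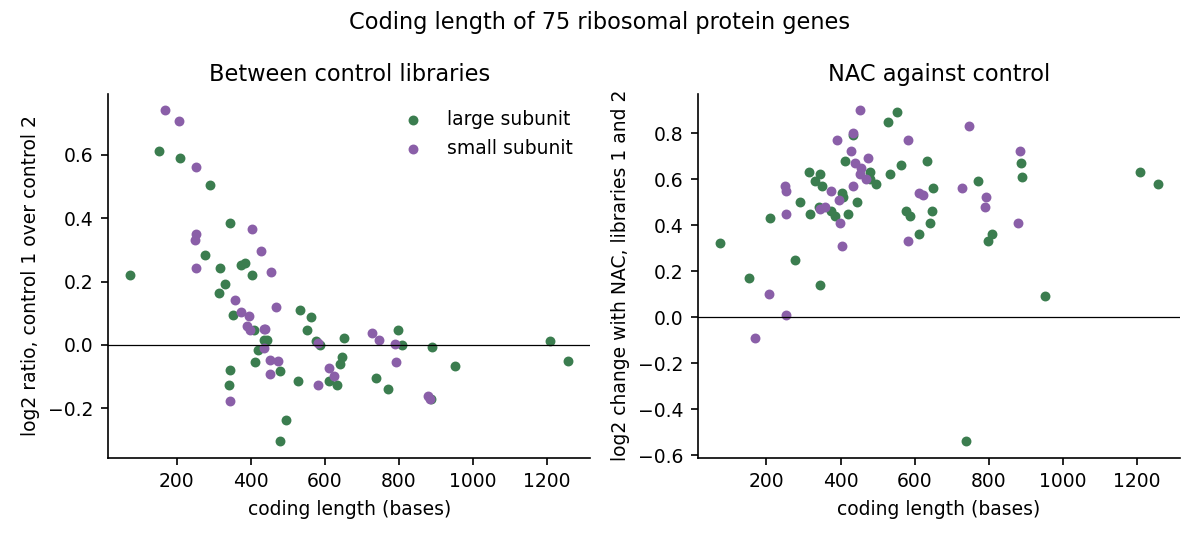
Coding length in bases (horizontal axes) of 75 members with at least 1000 reads on average, large subunit in green and small subunit in purple, against the log2 ratio of control 1 to control 2 (left) and the log2 change with NAC in libraries 1 and 2 (right). Members of up to 300 bases are the ones with high ratios between the controls (median 0.50), and on the right most members of all lengths lie above 0.

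The sequence windows shown above were compared with the changes. RefSeq start sequences were given for 67 of 87 members, and the 63 of them that belong to a subunit and had been tested were used. Rps19bp1, which belongs to neither subunit, was left out. A run of a C and at least 5 C or T beginning within 20 bases of an annotated start, on the sense strand, was found in 43 of 63 members (68.3%) and in 36% of 27025 genes. Beginning exactly at the annotated start, it was found in 12 members (19%) and in 2.05% of all genes. CCGGAA, the core of the motif of Ets factors such as Gabpa, was found on either strand of the 300-base sequences in 36 members (57.1%) and in 16.7% of all genes. AAGATGG, the core of the YY1 motif, was in 10 members (15.9%, against 7.28%), TATAAA in 7 (11.1%, against 15.7%), and CTTTCC, which can overlap the run, in 34 (54%, against 29.3%), each searched on both strands. A gene with several annotated starts was counted when any of them held the motif, and a match is a description of letters.

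Members with a run near the start had a median log2 change of 0.55 in libraries 1 and 2, and those without had 0.46. Of the 43 with a run 35 were called higher, and of the 20 without 13 were called higher. Rps6, whose run CCTCTTTTTC began 1 base before the start, rose, as did Rps16, which had no run in its window. Rps10, with the run CCCCTTCCTTTCC, fell. The difference between members with and without a run was not tested.

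Genes around the ribosomal proteins were read from the same fit. Of the ribosomal genes outside the naming rule, Fau and Rack1 rose in libraries 1 and 2. Fau, translated as a fusion of a small subunit protein with a ubiquitin-like protein, went from 475 and 498 CPM in control 1 and 2 to 916 and 655 CPM in NAC 1 and 2 (log2 change 0.69, adjusted p = 0.000345). Control 3 to 5 held 867, 872 and 937 CPM of Fau, so control 1 and 2 were the low ones, as for most members. Rack1, the signalling scaffold on the small subunit, went from 1681 and 1761 to 2784 and 2229 CPM (0.54, adjusted p = 0.00052). Over 10 libraries neither gene passed (adjusted p = 0.535 for Fau and 0.261 for Rack1).

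Of 21 other genes whose messages carry a TOP motif, such as elongation factors, 9 rose and 5 fell in libraries 1 and 2, beside 32.2% and 28.3% of all genes. There were 1 rise and 2 falls in libraries 3 to 5, beside 15% and 14% of all genes. Over 10 libraries there were 0 rises and 1 fall, beside 6.69% and 4.88%. The median of these 21 genes in libraries 1 and 2 was 0.18, beside 0.47 and 0.55 for the 2 subunits. The 1 called over 10 libraries was Vim, an intermediate filament gene, with 487, 565, 267, 271 and 269 CPM in control and 214, 215, 88.0, 79.5 and 79.7 CPM with NAC. All NAC values lay below all controls, and the log2 change was -1.46 ± 0.37 over 10 libraries (adjusted p = 0.0313). That call ended without control 1, control 2, NAC 3, NAC 4 or NAC 5 (0.058 to 0.0739).

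The list of regulators of TOP translation and the list of ribosomal protein carriers and other maturation factors held more falls than rises. Of 18 genes in the list of regulators 2 rose and 10 fell in libraries 1 and 2, beside 32.2% and 28.3% of all genes. That list also holds the transcription factors Myc and Gabpa, and Gabpa was among the falls. There were 1 rise and 4 falls in libraries 3 to 5, beside 15% and 14%, and over 10 libraries 0 rose and 2, Larp4 and Larp1, fell, beside 6.69% and 4.88%. Larp1 was at 639, 635, 602, 590 and 578 CPM in control and at 406, 428, 487, 518 and 498 CPM with NAC, with no overlap, and its log2 change was -0.38 ± 0.09 (adjusted p = 0.0225). The Larp1 call ended without control 1, control 2 or NAC 2 (0.0517 to 0.0551). Larp4, an RNA-binding protein of the same family, had a log2 change of -0.57 ± 0.12 (adjusted p = 0.0154). The other list held 17 tested chaperones, import factors and other factors of ribosome maturation, such as Nmd3, Sbds, Rrp7a and Prmt3. Of these 0 rose and 13 fell in libraries 1 and 2, 0 rose and 6 fell in libraries 3 to 5, and 0 rose and 2 fell over 10 libraries. The shares of all genes that fell were 28.3%, 14% and 4.88%, in the same order. With the replicate block 6 fell, where 8.22% of all genes were lower.

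The 2 chaperones called over 10 libraries were Grwd1 and Heatr3. Grwd1, the chaperone of the Rpl3 protein, was at 102, 99.0, 71.3, 71.2 and 74.5 CPM in control and at 51.0, 36.6, 55.2, 44.5 and 51.8 CPM with NAC. All NAC values lay below all controls, and the log2 change was -0.81 ± 0.15 (adjusted p = 0.0101). Heatr3, which carries the Rpl5 protein into the nucleus, had a log2 change of -0.54 ± 0.14 (adjusted p = 0.0308), a call that ended without control 1, control 2, NAC 2, NAC 3 or NAC 5 (0.0556 to 0.0745). Rpl3 and Rpl5 were higher with NAC in libraries 1 and 2 while Grwd1 (-1.2) and Heatr3 (-0.86) were lower.

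**Figure D5:**
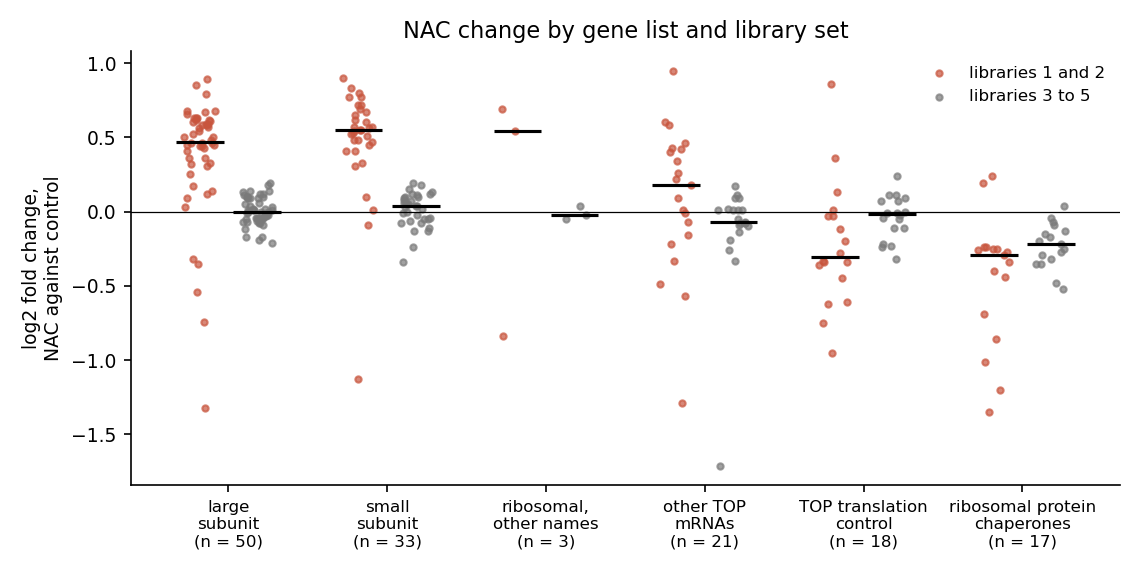
Log2 fold change of NAC against control (vertical axis) of each tested gene in 6 lists, with libraries 1 and 2 in red, libraries 3 to 5 in grey and black lines at the medians. In libraries 1 and 2 the 2 subunit lists have medians of 0.47 and 0.55, the list of regulators of TOP translation (with Myc and Gabpa) -0.30 and the list of chaperones and other maturation factors -0.29.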

How the data were processed

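Libraries were made with a SMARTER mRNA kit from 1.3 µg of total RNA, per the labels' protocols. The deposited table gives, per the file headers, a read count, an FPKM value and a gene length in bases for each gene. The authors' read counts are raw whole numbers. The authors' FPKM values, scaled by gene length and library total, served only to compare levels between genes. The submitters' processing notes name GRCm38 and mm10. The aligner, counter, annotation and strand setting were not given in the sources used here. Since the build of the table's positions is not settled, genes are placed by chromosome only. Each library had 13.30 to 17.71 M reads, so for most members the spread between libraries, not counting error, sets the precision.

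NAC was compared with control by edgeR 4.0.16 in R 4.3.3 (quasi-likelihood F test, robust, filterByExpr, TMM), two-sided, with Benjamini-Hochberg adjustment over 11403 genes and a threshold of 0.05. Contrasts within libraries 1 and 2, within libraries 3 to 5 and between these sets come from a joint fit of the 4 combinations of group and set. Standard errors were taken from the F statistic. CPM values are TMM-scaled, and log2 CPM used a prior count of 2. Alternatives used DESeq2 1.42.0, limma-voom (limma 3.58.1), other scalings and filters, a replicate block, a set term and each library left out. The code was tested on simulated data.

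The members, gene lists, library sets and tests were chosen with earlier results of these data known. Named genes were, per subunit, up to 4 called higher and 4 lower over 10 libraries, 3 with the smallest adjusted p in the difference between sets, the 2 most abundant per length, paralogs with reads, the P stalk genes and 8 well-known members. Other lists gave up to 2 called higher and 2 lower, or their 2 most abundant. Some genes that the rule took are not reported here by name. Rps23rg1 was set apart as no structural protein after the table was read. Library numbers were checked for pairing by correlating deviations from the group means. The r was 0.48 to 0.60 for libraries that share a number, 0.47 to 0.58 for different numbers in 1 set, and -0.57 to -0.45 across sets. Every pair passed 0.1, the rule used for pairing, although the numbers stand largely for the sets. The block raised calls over all genes from 1319 to 2254. Coding lengths are from GENCODE M21 and start sequences from RefSeq, with every start that RefSeq gives for a gene.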

Additional observations from a re-analysis of the deposited data

Results flagged for a closer look

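By Dixon's criterion, a single library stood apart from the other 4 of its group for 8 of 70 combinations of group and gene or subunit sum. The usual rate of about 1 of 20 assumes unrelated samples of 1 population and does not apply here. Each group mixes the library sets, the genes share libraries, and some genes were picked by their difference between sets. In 7 of the 8 the library that stood apart was NAC 1, which was high. There Rplp1 was at 2481 CPM against 1540 to 1730 CPM in the other NAC libraries, and Rps14 was at 1844 CPM against 1288 to 1397 CPM. Rps15 in NAC 1 was at 1911 CPM against 1305 to 1410 CPM, and Rplp2 at 1148 CPM against 725 to 778 CPM. Rpl11 in NAC 1 was at 1634 CPM against 1092 to 1220 CPM, Rps19 at 1049 CPM against 677 to 766 CPM, and Rpl22 at 631 CPM against 416 to 470 CPM. The eighth was Rps15a, low in NAC 2 with 1252 CPM against 1587 to 1667 CPM in the others. The median change of the members with and without NAC 1 is given beside the counts for libraries 1 and 2.

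The NAC effect differed between the library sets for 55 ribosomal protein genes by the interaction test, 52 of them higher in libraries 1 and 2. Among the named large subunit genes the log2 change in libraries 1 and 2 minus that in libraries 3 to 5 was 0.76 for Rpl17, 0.74 for Rplp2, 0.72 for Rpl11, 0.66 for Rpl3, 0.55 for Rplp1 and 0.49 for Rpl5. It was -1.28 for Rpl36al and -0.37 for Rpl7l1. In the small subunit it was 0.91 for Rps14, 0.77 for Rps15, 0.73 for both Rps15a and Rps6, 0.61 for Rpsa, 0.52 for both Rps19 and Rps27a, 0.48 for Rps3a1 and -0.79 for Rps10. Of the ribosomal genes outside the naming rule, Fau differed by 0.71 and Rack1 by 0.51. The other named genes differed by 0.42 for Vim, -0.63 for Larp4, -0.38 for Larp1, -0.68 for Grwd1 and -0.58 for Heatr3. Adjusted p-values of these differences, by edgeR's quasi-likelihood test, ran from 0.000379 to 0.0342. They rest on the pooled spread of both sets, which was wider in libraries 1 and 2 fitted alone. Cd4 differed between the same sets in both groups, and its part in these differences was not tested.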

How the results depend on the processing

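Over all genes, 1319 calls became 2287 with DESeq2, 2254 with the replicate block and 4155 with a set term, and 631 to 1405 with 1 library left out, under 1319 by over 1.5 times without any of control 1 to 5 or NAC 2. The 1 member called over 10 libraries, Rps10, became 0 without a filter, 2 with a minimum of 5 CPM, 4 with DESeq2 and 13 with a set term, and 0 to 1 with 1 library left out. With library size alone or upper quartile factors the 1 call was Rps16, higher, in place of Rps10. The replicate block left the member count over 10 libraries at 1, Rps10, and changed no other member's call, while no block fit was made within a set. In libraries 1 and 2 the 67 calls became 39 with these libraries fitted alone (chosen after seeing the data), and the median log2 change ran from 0.24 to 0.71 in the large and from 0.29 to 0.76 in the small subunit with 1 library left out; the lone library of an arm is then assumed to vary like the others. In libraries 3 to 5 the 0 calls became 1 with library size alone, 24 with these libraries fitted alone, and 0 to 20 with 1 library left out. The cause of these shifts was not tested.

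Among the named genes, signs turned for some that were not called and lay near 0. Over 10 libraries Rplp0 (-0.01) was at 0.02 with library size alone, 0.05 with upper quartile factors, 0 with a minimum of 5 CPM, and -0.08 to 0.05 with 1 library left out. With 1 library left out Rpl39l (0.10) ran from -0.13 to 0.30 and Rps27l (-0.11) from -0.32 to 0.03. In libraries 1 and 2 Rplp0 (0.09) ran from -0.05 to 0.22, a call without NAC 2 (adjusted p = 8.32e-05), Rpl39l from -0.06 to 0.29 and Rps19bp1 from -0.41, a call without NAC 1 (0.00111), to 0.13 with 1 library left out. Rps27l (0.01) was at 0 with DESeq2 size factors, DESeq2's test or these libraries alone, at -0.04 without a filter, and ran from -0.22 to 0.22 with 1 library left out. Upper quartile factors moved the median of all genes in libraries 1 and 2 to 0.15, with the members at 0.62. Members with under 300 reads per library, such as Rpl24, are limited by depth.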
